A study of Mus musculus with 44 samples.

Results

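The 10 genes described here belong to the machinery with which phagocytes recognise and take up dying cells, debris and synapses: Trem2, Tyrobp, Apoe, Axl, Mertk, Gas6, Pros1, Megf10, Itgb5 and Cd36. They are members by symbol, and all 10 were found among the 50714 gene identifiers shared by the 44 count files of the series. The RNA came from the dorsal cortex plus hippocampus, taken on postnatal day 28 or 29. All mice were labelled as carrying 1 allele of CX3CR1-CreERT2, a Cre recombinase under the promoter of the microglial and macrophage gene Cx3cr1 that needs tamoxifen to act, and 1 floxed allele of RPL10a-GFP, a GFP-tagged ribosomal protein; the series' design text gives the floxed allele as fl/fl. Tamoxifen mice received 100 mg/kg tamoxifen in sunflower oil and ethanol (9:1) on postnatal days 15, 17 and 19, and controls were vehicle-treated per the labels but untreated per the design text. Because Cx3cr1 is also active in border macrophages, the tag marks Cx3cr1-expressing cells and not microglia alone.

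Under each replicate letter there are 4 libraries. Input is RNA of the whole homogenate, and MG_TRAP is what was pulled down from it with GFP-tagged ribosomes (translating ribosome affinity purification). SN_input is RNA of the synaptosome fraction, a preparation of pinched-off synapses with adhering material. PeMP_TRAP is the same pull-down done on synaptosomes, titled SN_TRAP in replicates G to K. There were 3 control replicates (A to C) and 8 tamoxifen replicates, D to F in a first set with the controls and G to K in a second set without controls. The labels do not say whether a letter is 1 animal or whether replicates are separate animals, so the p-values measure the spread between these libraries, which may be in part technical. Counts by letter below compare libraries of the same letter and are no paired test. Pairing by letter was not established, so these counts describe values and add no support to a call. Only the alternative fits with a replicate block used the letters as pairs. Assigned reads ran from 746616 to 35584637 per library, and the second-set PeMP_TRAP libraries detected 5425 to 7436 genes against 11736 to 13141 in those of replicates D to F. Levels are given as CPM (counts relative to library size) scaled with TMM factors over all 44 libraries (scaled CPM).

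The coordinates are those of GENCODE M21 on GRCm38; the build the authors aligned to is not given in the sources used here, and the 50714 identifiers shared by all count files were found in that annotation. Trem2 is at chr17:48346401-48354147, Tyrobp at chr7:30413760-30417585, Apoe at chr7:19696109-19699188, Axl at chr7:25757273-25788705, Mertk at chr2:128698956-128802894, Gas6 at chr8:13465374-13494490, Pros1 at chr16:62854307-62929346, Megf10 at chr18:57133090-57297467, Itgb5 at chr16:33829665-33949338 and Cd36 at chr5:17781690-17888801. The files give 1 count per gene and no strand setting, and Gas6 shares 34 exonic bases with Tmem255b on the opposite strand.

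TREM2 is a surface receptor for lipids and lipoproteins, among them apolipoprotein E, the product of Apoe. It signals through TYROBP (DAP12), an adaptor that recruits the kinase SYK. AXL and MERTK are receptor tyrosine kinases of the TAM family; their ligands GAS6 and protein S (the product of Pros1) bridge them to phosphatidylserine on the engulfed surface. MEGF10 is an engulfment receptor best known from astrocytes, integrin beta 5 (Itgb5) pairs with integrin alpha V, which binds the bridging molecule MFG-E8, and CD36 is a scavenger receptor. In a bulk library, fewer cells of a type and less RNA per cell cannot be told apart.

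Promoter windows were available from RefSeq (GRCm38.p6) for 8 of the 10 genes; Tyrobp and Megf10 had no entry. The windows of Trem2, Pros1 and Itgb5 are shown because these 3 genes were higher in MG_TRAP than in Input under every alternative processing tried. Each window is the 250 bases before the annotated start, 5′ to 3′ on the gene's strand, and capitals mark GAGGAA or its reverse complement TTCCTC, the core recognised by PU.1, a transcription factor of the myeloid lineage. Trem2 is at chr17:48346151-48346400 (+), Pros1 at chr16:62854057-62854306 (+) and Itgb5 at chr16:33829415-33829664 (+).
Trem2: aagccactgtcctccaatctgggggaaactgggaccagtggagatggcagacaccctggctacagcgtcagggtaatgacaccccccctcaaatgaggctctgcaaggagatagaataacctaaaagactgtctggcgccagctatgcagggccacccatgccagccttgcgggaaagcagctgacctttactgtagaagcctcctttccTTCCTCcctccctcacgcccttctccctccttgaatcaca
Pros1: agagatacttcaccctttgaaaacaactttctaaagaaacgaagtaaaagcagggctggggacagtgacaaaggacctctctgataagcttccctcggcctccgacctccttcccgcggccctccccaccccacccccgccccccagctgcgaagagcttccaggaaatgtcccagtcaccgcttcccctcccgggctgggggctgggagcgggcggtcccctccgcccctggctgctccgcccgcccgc
Itgb5: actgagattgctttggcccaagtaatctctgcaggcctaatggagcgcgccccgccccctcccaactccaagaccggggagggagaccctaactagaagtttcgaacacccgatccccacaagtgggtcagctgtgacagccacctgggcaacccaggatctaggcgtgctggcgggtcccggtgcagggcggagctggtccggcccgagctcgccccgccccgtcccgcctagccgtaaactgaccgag
The core occurred once in the Trem2 window, 40 bases before the start, and was not found in the other two. It was also present in 2 of the 3 windows of Apoe and in that of Axl, so 4 of the 10 windows of these genes had it, while 23.3% of all 32851 RefSeq windows of that length hold it. A match describes the letters only.

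Per length, the level of the 10 genes spanned several orders of magnitude, as the plot of levels per length shows. In Input of the second set (n = 5), Apoe had a median of 725.8 scaled RPKM (CPM per kilobase of exon) and stood above Tyrobp at 21.4 and Gas6 at 17.8, whose ranges overlapped. Mertk (3.08), Itgb5 (2.45), Axl (1.91) and Trem2 (1.80) followed, each overlapping its neighbour in that order, and Pros1 (0.624) and Megf10 (0.588) lay below them. In MG_TRAP of the same set Tyrobp had the highest median, 1614 scaled RPKM, and overlapped with Apoe at 1075. Trem2 came next at 146.9 and did not overlap with Apoe. Itgb5 (74.3) and Gas6 (40.3) followed, then Pros1 (21.7) and Mertk (14.5), with Axl (1.15) and Megf10 (0.202) far lower. By median, Trem2 thus stood below Itgb5, Gas6 and Mertk in Input and above all 3 in MG_TRAP, where its range overlapped with that of Itgb5. In PeMP_TRAP Apoe (3549) and Tyrobp (2507) led with overlapping ranges, followed by Itgb5 (202.5) and Trem2 (159.2), which also overlapped.

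**Figure D1:**
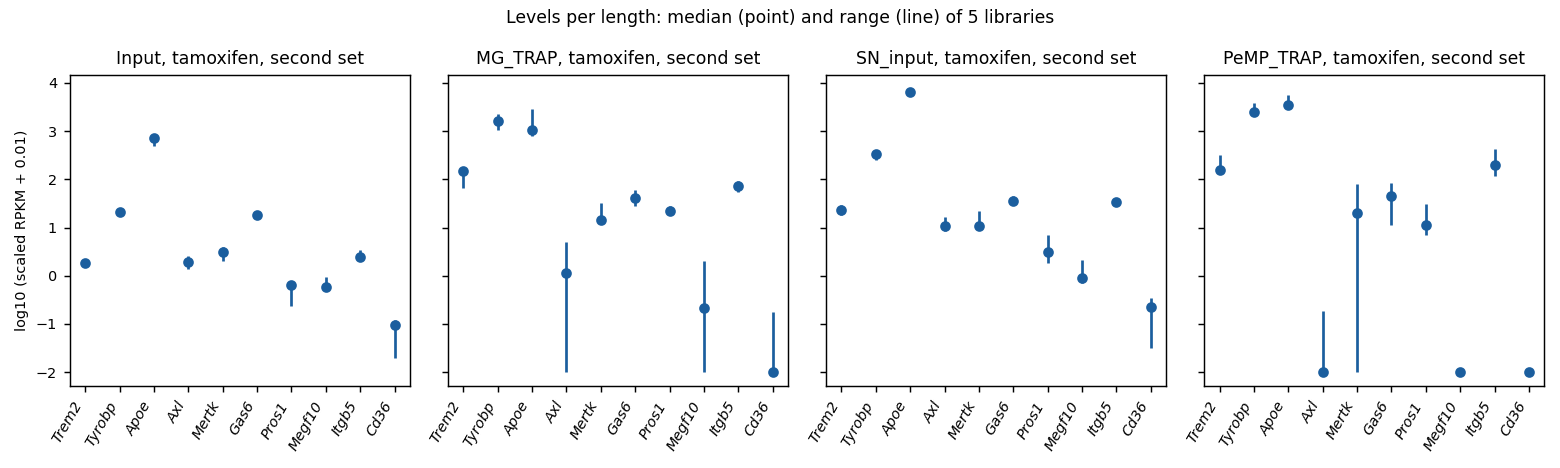
Levels of the 10 genes in the 4 fractions of the second-set tamoxifen libraries (replicates G to K), as log10 of scaled RPKM plus 0.01; points are medians and lines run from the lowest to the highest of 5 libraries. Tyrobp and Apoe lead both immunoprecipitates, and Megf10 and Cd36 lie at 0 in PeMP_TRAP.

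The tag was checked on the microglial markers. Their summed level (15 genes) was 187.3 to 304.4 scaled CPM in the tamoxifen Input libraries and 13073 to 45729 in MG_TRAP, and all 15 were called higher there. The border macrophage list of 9 genes summed to 1.5 to 18.4 scaled CPM in Input and 142.7 to 346.0 in MG_TRAP, with 4 of 9 called higher and none lower. Of that list Cd163 was at 0 in the 3 first-set MG_TRAP libraries, and its part in the members' values was not tested. Astrocyte markers (12 genes, 1 called lower) lay at 1702 to 2981 scaled CPM in Input and 405.0 to 1744 in MG_TRAP, and neuronal markers (11 genes, 3 called lower) at 10286 to 15159 and 1633 to 5861. Oligodendrocyte markers (8 genes) summed to 3412 to 5557 scaled CPM in Input and 543.4 to 1736 in MG_TRAP of D to F, but in G to K MG_TRAP (1269 to 10490, median 5418) was not below Input (4214 to 5141, median 4502). Their part in the members' values was not tested.

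The first comparison asked which of the genes are enriched in RNA of tagged ribosomes from whole tissue (MG_TRAP against Input, tamoxifen, 8 libraries each). Trem2, Tyrobp, Pros1 and Itgb5 were higher in the immunoprecipitate by 5.34 to 7.0 on the log2 scale, Apoe and Gas6 by 1.47 and 1.61, and Axl, Mertk and Megf10 were not called. Of the 9 genes that passed the low-count filter, 6 were higher and none was lower, against a background of 6.82% of 15710 genes called in either direction (4.67% higher, 2.15% lower). Of all genes called, 733 of 1071 were higher with TMM scaling and 594 of 1122 with RLE size factors, and the median over all genes moved from -0.14 to -0.66. Cd36, with at most 16 counts in any library of the series, did not pass the filter in the fits whose values are given here. It passed in some of the alternatives, where its values rest on these few counts.

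Both the receptor and its adaptor were called. Trem2 lay between 2.03 and 16.7 scaled CPM in Input (median 8.47) and between 328.6 and 1234 in MG_TRAP (median 749.2). Every MG_TRAP library was far above every Input library. The log2 fold change was 6.57 ± 0.54 (SE; edgeR adjusted p = 3.34e-12), with 7.20 in the first set and 6.23 in the second. Tyrobp lay between 8.88 and 50.9 scaled CPM in Input (median 14.5) and between 699.0 and 14660 in MG_TRAP (median 1317), again without overlap. Its log2 fold change was 7.0 ± 0.45 (adjusted p = 2.75e-15). The MG_TRAP level of Tyrobp differed between the sets, with 2689 to 14660 scaled CPM in D to F and 699.0 to 1508 in G to K, but the enrichment was called in each (8.14 and 6.29); limma voom gave an adjusted p = 0.104 at 6.74.

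Apoe encodes the lipoprotein that astrocytes make in quantity. It lay between 833.6 and 1887 scaled CPM in Input (median 1127) and between 1655 and 6024 in MG_TRAP (median 2874). The groups overlapped in range, while within each of the 8 letters MG_TRAP was higher. The log2 fold change was 1.47 ± 0.33 (edgeR adjusted p = 0.00238). It was 2.22 in the first set alone (adjusted p = 0.218) and 1.10 in the second (0.0269), and DESeq2 (0.96, adjusted p = 0.106) and limma voom (0.88, 0.632) did not call it.

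Of the TAM system, both ligands were called and neither receptor was. Pros1 lay between 0.259 and 4.06 scaled CPM in Input (median 2.09; 1 to 114 counts) and between 76.6 and 368.5 in MG_TRAP (median 86.8). No library overlapped, and the log2 fold change was 5.91 ± 0.93 (edgeR adjusted p = 1.79e-05; 6.71 and 5.44 in the first and second set). Gas6 lay between 26.4 and 69.4 in Input and between 72.0 and 392.6 in MG_TRAP, without overlap but with the neighbouring values close. Its log2 fold change of 1.61 ± 0.50 passed narrowly (adjusted p = 0.0417) and missed the threshold under 15 of 17 alternatives, where it ranged from 1.12 to 2.25. Mertk lay between 7.70 and 25.1 in Input (median 13.5) and between 50 and 136.6 in MG_TRAP (median 79.6), with no overlap. The fitted log2 fold change was 2.67 ± 0.93 with an adjusted p = 0.0787, and a fit of the 2 groups alone called it (2.73, adjusted p = 2.79e-06). Axl lay between 1.03 and 15.3 in Input and between 0 and 59.9 in MG_TRAP, higher in 4 letters and lower in 4 (log2 fold change 0.26 ± 1.21, adjusted p = 0.966). It was higher in 3 of 3 letters of the first set (1.97, adjusted p = 0.636) and lower in 4 of 5 of the second (-0.11, 1.00), and the difference between the sets was not called (-2.14 ± 2.06, 1.00).

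Among the engulfment receptors, Itgb5 lay between 7.24 and 28.5 scaled CPM in Input (median 9.08) and between 196.5 and 1959 in MG_TRAP (median 317.5). The groups were fully apart, with a log2 fold change of 5.34 ± 0.50 (edgeR adjusted p = 1.54e-10; 5.94 and 4.91 by set). Megf10 was lower in MG_TRAP in 7 of 8 letters. Its Input libraries held 1 to 300 counts (median 4.71 scaled CPM), whereas MG_TRAP held 0 counts in replicates D, E, F, J and K, 34 in G, 33 in I and 574 in H. Library H alone was above its Input, and the fitted change was not called (-1.58 ± 1.42, adjusted p = 0.694); limma voom called it lower (-4.23, 0.0206).

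**Figure D2:**
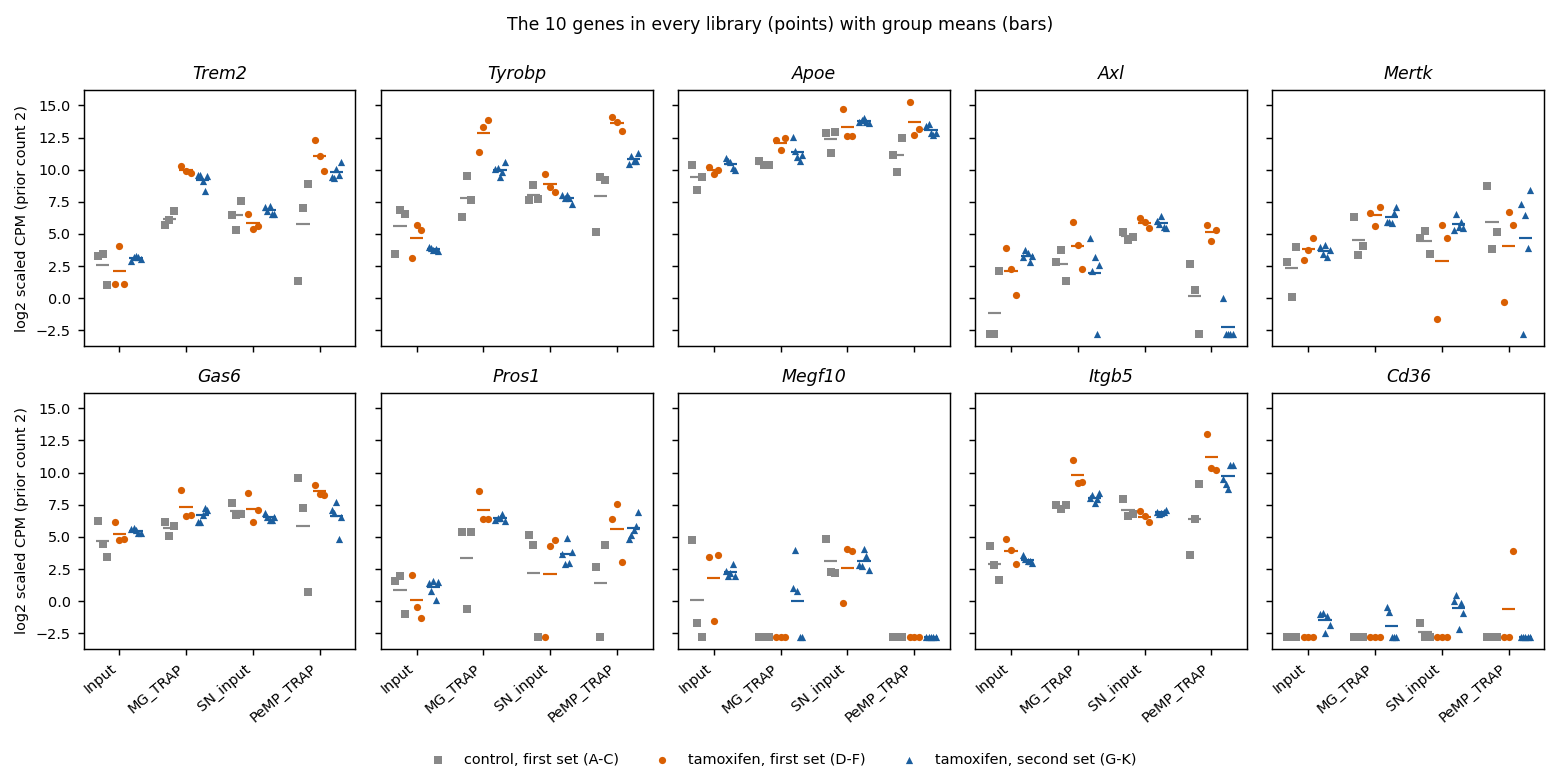
Each of the 10 genes in every library, as log2 scaled CPM with a prior count of 2, by fraction; squares are controls, circles tamoxifen replicates D to F and triangles tamoxifen replicates G to K, with bars at group means. Points near -2.8 have 0 counts. Trem2, Tyrobp, Pros1 and Itgb5 separate between Input and MG_TRAP of the tamoxifen libraries, while Megf10 is at 0 in all 11 PeMP_TRAP libraries.

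The genes working around these receptors were read from 5 lists. Of the TREM2 and TYROBP signalling list 10 of 15 tested genes were higher and none lower, with a median log2 fold change of 5.39 against -0.14 over all genes. Vav1, an exchange factor for RAC, stood at 6.63 ± 0.94 (edgeR adjusted p = 2.31e-06). Syk, the kinase that TYROBP recruits, stood at 4.44 ± 1.09 (edgeR adjusted p = 0.00576, lost under 1 of 17 alternatives). Other engulfment receptors had 8 of 17 higher and 1 lower, with a median of 5.60; this list shares Itgam with the microglial markers and Stab1 with those of border macrophages. Cd14, the lipopolysaccharide co-receptor (6.79 ± 0.95, edgeR adjusted p = 1.43e-06), and Itgb2 (6.36 ± 0.86, 7.97e-07) were higher. Scarf1 was lower (0.0119, lost under 3 of 11 alternatives), with 0 counts in 7 MG_TRAP libraries and 6 in the other, against 0 to 66 in Input. Of the engulfment machinery 6 of 19 were higher and none lower, among them Abi3 (6.73 ± 1.16) and the haematopoietic GTPase Rac2 (6.57 ± 0.74). None of 13 apolipoproteins and their receptors and none of 8 TAM partners was called in this comparison by edgeR; their medians were 0.13 and -1.19.

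Before any immunoprecipitation, the synaptosome fraction was compared with the homogenate (SN_input against Input, tamoxifen). Trem2, Tyrobp, Apoe, Pros1 and Itgb5 were higher and Axl, Mertk, Gas6 and Megf10 were not called. In all, 5 of 9 were higher and none lower, against 2.55% of all genes called (2.08% higher). That background leans on the scaling: 327 of 400 calls were higher with TMM, 134 of 243 with RLE size factors and 93 of 323 with total counts, and the median over all genes moved from -0.02 to -0.72 and -1.07. Apoe rose from a median of 1127 to 13640 scaled CPM, and its lowest SN_input library (6219) was above its highest Input library (1887). Its log2 fold change was 3.46 ± 0.35 (edgeR adjusted p = 3.31e-09). Trem2 (median 94.1 scaled CPM in SN_input, 3.67 ± 0.47, 8.46e-07), Tyrobp (median 263.3, 4.04 ± 0.39, 1.28e-09) and Itgb5 (median 117.6, 3.46 ± 0.46, 1.80e-06) rose too, without overlap of the groups. Pros1 was called at 2.93 ± 0.81 (adjusted p = 0.0387), although library D held 0 counts, and the call was lost under 13 of 17 alternatives. Axl lay between 42.8 and 84.5 scaled CPM in SN_input and between 1.03 and 15.3 in Input, and Gas6 between 69.5 and 337.1 against 26.4 to 69.4. Neither group pair overlapped, yet neither change passed (Axl 2.65 ± 1.24, adjusted p = 0.396; Gas6 1.43 ± 0.50, 0.141), and both passed in a fit of the 2 groups alone, which called 2779 of 14620 genes. Mertk (1.64 ± 0.91, adjusted p = 0.541) and Megf10 (0.74 ± 1.27, 0.952) were not called.

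Of the related lists, the signalling list had 3 of 15 genes higher, among them the inositol phosphatase Inpp5d (3.99 ± 0.69, edgeR adjusted p = 0.000170, lost under 1 of 17). Other engulfment receptors had 6 of 17 higher, among them the complement receptor chain Itgam (4.53 ± 0.65), the engulfment machinery 2 of 19, among them Rac2 (3.92 ± 0.65, lost under 2 of 17), and the apolipoproteins and their receptors 1 of 13, Lrp1 (1.45 ± 0.34, 0.0102, lost under 7 of 17 alternatives). None of the 5 lists had a gene called lower.

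Glial marker RNA differed between the same fractions. In SN_input the microglial list summed to 2035 to 7515 scaled CPM against 187.3 to 304.4 in Input, the astrocyte list to 11406 to 15459 against 1702 to 2981, and the oligodendrocyte list (8 genes) to 8866 to 67560 against 3412 to 5557; neuronal markers summed to 8444 to 13506 against 10286 to 15159. Called higher were 14 of 15 microglial, 4 of 12 astrocyte, 3 of 8 oligodendrocyte and 0 of 11 neuronal markers, and none was called lower. The part of this in the members' change was not tested. The first set alone (3 against 3) and limma voom on all libraries called 0 of the 9 genes, and the second set called 5 of 10, where 0.0463%, 1.33% and 3.89% of all genes were called. The fold changes of Apoe were 3.77, 3.57 and 3.27 in the same order.

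The next comparison asked which of the genes are enriched on tagged ribosomes within the synaptosome fraction (PeMP_TRAP against SN_input, tamoxifen). Trem2, Tyrobp, Itgb5 and Pros1 were higher and Megf10 was lower, 5 calls among 9 genes where 32.3% of all genes were called (6.15% higher, 26.1% lower). Of the microglial list 15 of 15 genes were called higher too, with a median of 3.49 against -0.75 over all genes. Trem2 lay between 42.4 and 146.8 scaled CPM in SN_input (median 94.1) and between 642.8 and 5179 in PeMP_TRAP (median 1001). All 8 PeMP_TRAP libraries were above all SN_input libraries, and the log2 fold change was 3.95 ± 0.49 (edgeR adjusted p = 3.98e-07). Tyrobp lay between 164.1 and 806.2 and between 1420 and 17542 (medians 263.3 and 2350), also apart, at 3.64 ± 0.39 (1.76e-08); limma voom gave 3.21 with an adjusted p = 0.0581. Itgb5 lay between 69.2 and 134.3 and between 413.5 and 8303 (medians 117.6 and 1244), apart, at 3.69 ± 0.47 (8.34e-07).

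The library PeMP_TRAP D held the highest values of these 3 genes (5179, 17542 and 8303 scaled CPM) and of the microglial list (187479 scaled CPM in sum, against 18558 to 52249 in the other 7). Without it 33.1% of all genes were called, and the comparison had 6 calls, the same 5 and Axl (-4.17, adjusted p = 0.0368). By set, Trem2 was 5.49 in D to F and 2.88 in G to K, Tyrobp 4.72 and 2.93, and Itgb5 5.19 and 2.81, all called in both. The difference between the sets passed for Trem2 (-2.48 ± 0.80, adjusted p = 0.0297, 15.1% of 17961 genes called) and missed for Tyrobp (0.0656) and Itgb5 (0.0543). The count files of the sets list different identifiers, 54146 in the first and 55359 in the second, and the part of counting in differences between the sets was not tested.

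For Apoe, the synaptosome immunoprecipitate and its input did not differ by a called amount. SN_input lay between 6219 and 27220 scaled CPM (median 13640) and PeMP_TRAP between 6531 and 39743 (median 8393), with a log2 fold change of -0.19 ± 0.32 (edgeR adjusted p = 0.693). The sets went different ways: PeMP_TRAP was higher in 3 of 3 letters of the first set (0.47, adjusted p = 0.759) and lower in 5 of 5 of the second, where the groups did not overlap (-0.75, 0.0434). The difference between the sets was not called (-1.13 ± 0.63, adjusted p = 0.275).

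Among the TAM genes, Pros1 lay between 0 and 29.2 scaled CPM in SN_input (median 13.3) and between 8.16 and 182.9 in PeMP_TRAP (median 52.2), higher in 7 of 8 letters. The log2 fold change of 2.24 ± 0.79 (edgeR adjusted p = 0.0260) missed the threshold under 9 of 18 alternatives. Gas6 (0.69 ± 0.49, 0.301) and Mertk (1.10 ± 0.88, 0.365) overlapped between the groups. Mertk was uneven in PeMP_TRAP: 3, 144 and 32 counts in D to F and 5004, 0, 2397, 325 and 8409 in G to K. Axl was lower in PeMP_TRAP in all 8 letters. SN_input held 79 to 1104 counts of Axl, while PeMP_TRAP held 228, 30 and 24 counts in D to F, 27 in G and 0 in H, I, J and K. The pooled log2 fold change of -3.55 ± 1.52 missed (adjusted p = 0.0707), the second set alone called it (0.00134), and 7 of 18 alternatives in all did. The sets differed for Axl (-7.57 ± 2.33, adjusted p = 0.0225).

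Megf10 had 0 counts in every PeMP_TRAP library. SN_input held 4 to 216 counts in the tamoxifen libraries, at 0.759 to 16.5 scaled CPM (median 8.95), and all 8 PeMP_TRAP libraries held 0. With a floor of 3 counts per library, the PeMP_TRAP level was at least 9.28-fold lower over all 8 replicates and at least 73.7-fold lower in G to K, whose floor lay at 0.0991 to 0.154 scaled CPM (edgeR adjusted p = 0.000300 over all 8). In D to F, where the floor reached 4.90 scaled CPM, the bound was 4.08-fold and the first set alone did not call it (adjusted p = 0.135). The intervals and floors here cover counting error only, since the reads carried no molecular identifiers. The astrocyte list summed to 676.0 to 6198 scaled CPM in PeMP_TRAP against 11406 to 15459 in SN_input, with 7 of 12 genes called lower and none higher. None of its 12 genes was at 0 in all PeMP_TRAP libraries of a set, and its part in the value of Megf10 was not tested.

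Of all genes, 6.15% were higher and 26.1% lower in this comparison, and the counts of the related lists stand beside these shares. Markers called lower were 9 of 11 neuronal, 8 of 8 oligodendrocyte and 3 of 4 oligodendrocyte precursor genes. Of 7 tested endothelial markers 4 were lower and 1 higher, and of 5 pericyte and smooth muscle markers 3 were lower. Their part in the values of the related lists was not tested. Of the TREM2 and TYROBP signalling list 6 of 15 were higher and none lower, with a median of 2.89 against -0.75 over all genes; Vav1 stood at 4.2 ± 0.87 (edgeR adjusted p = 0.000481) and Syk at 2.89 ± 1.08 (0.0354), a call that was lost under 11 of 18 alternatives. Of 8 TAM partners 4 were lower and 1 was higher. Lower were the remaining TAM receptor Tyro3 (-3.88 ± 0.98, adjusted p = 0.00250, lost under 2 of 18 alternatives) and Mfge8, which encodes the bridging molecule of integrins (-1.88 ± 0.66, 0.0255, lost under 7 of 18 alternatives); Vkorc1, an enzyme of the vitamin K cycle, was the 1 that was higher (2.38 ± 0.75, edgeR adjusted p = 0.0126, lost under 3 of 18 alternatives). Of 13 apolipoproteins and their receptors 4 were lower, among them Clu, an astrocytic apolipoprotein (-3.35 ± 0.74), and 2 higher, among them Lrp1 (1.23 ± 0.34, lost under 3 of 18 alternatives). Other engulfment receptors had 8 of 17 higher and 3 lower, with Havcr2, the phosphatidylserine receptor TIM-3, at 4.39 ± 0.80. Megf11, the paralogue of Megf10, was lower (edgeR adjusted p = 0.000321), with 0 counts in 7 PeMP_TRAP libraries and 3 in the other, against 0 to 234 in SN_input. Of 19 genes of the engulfment machinery 5 were higher, among them Rac2 (3.22 ± 0.63), and 2 lower, among them Bcar1. Bcar1 held 0 to 3 counts in PeMP_TRAP and 3 to 280 in SN_input (edgeR adjusted p = 0.00847). The calls of Megf11, Rac2 and Bcar1 were each lost under 1 of 18 alternatives, the first set alone.

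**Figure D3:**
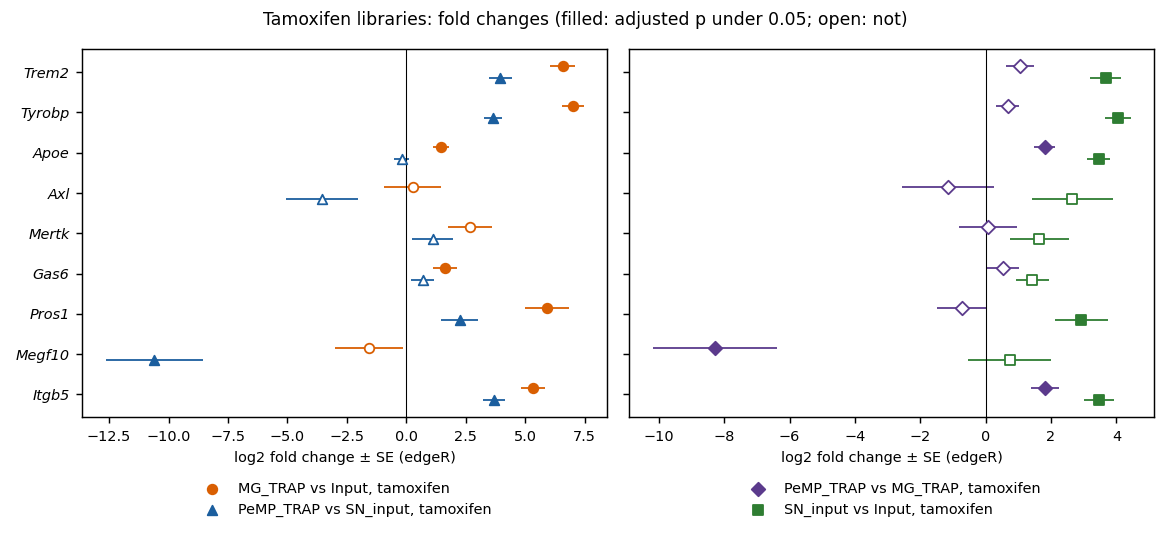
Log2 fold changes of 9 genes with standard errors from edgeR, in tamoxifen libraries; the left panel has each immunoprecipitate against its own input, the right panel PeMP_TRAP against MG_TRAP and SN_input against Input. Filled symbols have an adjusted p under 0.05. In the left panel Trem2, Tyrobp, Pros1 and Itgb5 are filled for both immunoprecipitates, and the values of Megf10 for PeMP_TRAP rest on libraries with 0 counts, so their size depends on the prior count.

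Set side by side, the 2 immunoprecipitates differed for a few of the genes (PeMP_TRAP against MG_TRAP, tamoxifen). Apoe and Itgb5 were higher in PeMP_TRAP and Megf10 lower, 3 calls among 9 genes where 25.2% of all genes were called (3.17% higher, 22.0% lower). The higher calls over all genes numbered 498 with TMM, 287 with RLE size factors and 195 with total counts, and the median moved from -0.57 to -1.1 and -1.3. Apoe lay between 1655 and 6024 scaled CPM in MG_TRAP and between 6531 and 39743 in PeMP_TRAP, so that the groups were apart (1.80 ± 0.33, edgeR adjusted p = 0.000239). Of 12 astrocyte markers 2 were higher and 1 lower in the same comparison, with a median of 1.05 against -0.57 over all genes; they summed to 405.0 to 742.2 scaled CPM in MG_TRAP and 676.0 to 6198 in PeMP_TRAP of D to F, and to 658.9 to 1744 and 1021 to 3717 in G to K. Their part in the value of Apoe was not tested. Itgb5 was higher in PeMP_TRAP in 8 of 8 letters, with overlapping ranges of 196.5 to 1959 and 413.5 to 8303 (1.81 ± 0.43, 0.00223). Both calls were lost in the first set alone (Apoe 2.02, adjusted p = 0.443; Itgb5 1.80, 0.476), where 0% of all genes were called, and that of Itgb5 also with scaling by total counts. The Megf10 call (adjusted p = 0.00207) rested on the MG_TRAP libraries G, H and I, since the other 5 held 0 counts as well; limma voom (-1.74, adjusted p = 0.194) and the first set, all at 0, did not give it.

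Trem2 (1.04 ± 0.43, edgeR adjusted p = 0.0707) and Tyrobp (0.67 ± 0.35, 0.169) were not called, and neither were Axl (-1.16 ± 1.40), Mertk (0.07 ± 0.88), Gas6 (0.52 ± 0.49) and Pros1 (-0.74 ± 0.76). Tyrobp stood at -0.04 with scaling by total counts and was called under 3 of 18 alternatives: limma voom (1.00, adjusted p = 0.000666), without replicate F (1.00, 0.0248) and in the second set (0.63, 0.0166). The signs of Mertk and Gas6 changed with the scaling. None of the 15 signalling genes was called by edgeR. Of 13 apolipoproteins and their receptors 1 was higher, Lrp1, the large endocytic receptor of APOE (1.75 ± 0.34, edgeR adjusted p = 0.000439). Of 17 other engulfment receptors 1 was higher, the scavenger receptor Stab1 (3.35 ± 0.66, edgeR adjusted p = 0.000424), and 2 were lower. Both the Lrp1 and the Stab1 call were lost under 1 of 18 alternatives, the first set alone. Of the 9 border macrophage markers, Stab1 among them, 1 was higher and 3 were lower, with a median of -1.59 against -0.57 over all genes. The engulfment machinery had 5 of 19 lower and none higher, and the TAM partners 1 of 8 lower and none higher.

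Enrichment over the matching input was smaller in the synaptosome fraction than in whole tissue for 5 of 9 genes and larger for none, as tested by the interaction of the 2 contrasts. Of all genes 11.3% were called, 10.9% lower and 0.388% higher. The difference was -2.62 ± 0.61 for Trem2 (edgeR adjusted p = 0.00504), -3.37 ± 0.50 for Tyrobp (0.000101), -1.66 ± 0.45 for Apoe (0.0131) and -3.67 ± 1.10 for Pros1 (0.0244). Megf10 was called too (0.00738), with values that rest on the libraries at 0. For Trem2, Tyrobp and Apoe the levels behind these differences are those given above: the inputs differed by 3.46 to 4.04 on the log2 scale and the immunoprecipitates by 0.67 to 1.80. The Pros1 call was lost under 9 of 17 alternatives, and that of Apoe under 3 (DESeq2, limma voom and the first set). Itgb5 missed (-1.65 ± 0.60, adjusted p = 0.0667) and was called under 5 of 17 alternatives, among them without the library PeMP_TRAP D (-2.20, 0.00733). Of the microglial list 14 of 15 genes were lower too, with a median of -3.16 against -0.79 over all genes. Of the related lists, Inpp5d (-4.00 ± 0.90, edgeR adjusted p = 0.00389) was the 1 of 15 signalling genes called, and Itgam (-3.34 ± 0.81, 0.00640) was among 5 of 17 other engulfment receptors that were lower. The first set alone called none of the 9 genes, where it called 0% of all genes, and limma voom only Axl, where it called 12.1%, with differences of -3.42 and -3.54 for Tyrobp. In the first set the difference was -1.71 for Trem2 and -0.75 for Itgb5.

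Tamoxifen and control libraries were compared in the first set. Tamoxifen also induces the tag, so effects of the drug and of the tag cannot be told apart here. In PeMP_TRAP, Trem2, Tyrobp and Itgb5 were higher with tamoxifen, 3 of 9 genes against 11.1% of 14771 genes called (5.56% higher, 5.56% lower). Tyrobp stood at 35.3, 690.0 and 599.3 scaled CPM in controls A to C and at 17542, 13662 and 8104 in D to F. The groups were apart, and the log2 fold change was 4.62 ± 1.02 (edgeR adjusted p = 0.00729). Trem2 stood at 2.46, 127.7 and 473.9 in A to C and at 5179, 2143 and 942.1 in D to F (3.49 ± 1.10, 0.0357). Itgb5 stood at 11.9, 84.7 and 556.4 and at 8303, 1311 and 1177 (3.69 ± 1.05, 0.0231). Control A was the lowest and control C the highest of the controls for Trem2 and Itgb5. The call of Trem2 was lost under 7 of 13 alternatives, that of Itgb5 under 4 and that of Tyrobp under 1.

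Without the library PeMP_TRAP D, 2.54% of all genes and 1 of the 9 were called, Tyrobp (4.51, adjusted p = 0.0213), and Trem2 (2.90, 0.122) and Itgb5 (2.44, 0.149) missed. A fit of these 6 libraries alone called 0 of 8 genes and 0.353% of all genes. Apoe stood at 2295, 895.5 and 5767 scaled CPM in controls and 39743, 6531 and 9199 with tamoxifen (2.21 ± 0.78, edgeR adjusted p = 0.0560). Apoe was called under 6 of 13 alternatives. Its groups did not overlap, nor did those of Trem2, Tyrobp, Itgb5 and Axl (0 to 6.15 scaled CPM in controls, 22 to 51.2 with tamoxifen), 5 of 9 genes against 16.5% of all genes (12.2% higher, 4.28% lower). Axl (3.33 ± 1.88), Pros1 (3.19 ± 1.82), Mertk (-1.91 ± 1.5) and Gas6 (-0.20 ± 1.10) were not called. Control A held the most Mertk (432.0 scaled CPM) and Gas6 (775.0) of the first-set PeMP_TRAP libraries, and without replicate A the changes of both were positive (Mertk 1.10, Gas6 2.34). In PeMP_TRAP of control A 25.1% of reads lay outside any gene, against 5.19% in B and 3.43% in C. Control PeMP_TRAP libraries also held 512.7 to 1638 scaled CPM of 8 endothelial markers and 746.8 to 5374 of 5 pericyte and smooth muscle markers, against 5.12 to 985.6 and 4.90 to 29.6 in D to F. The part of these in the members' values was not tested.

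Of the related lists, TREM2 and TYROBP signalling had 8 of 15 genes higher with tamoxifen in PeMP_TRAP and none lower. Plcg2, a phospholipase downstream of SYK, held 0 to 1 counts in the controls and 40 to 333 in D to F (edgeR adjusted p = 0.0235, lost under 3 of 13 alternatives), and Rac2 of the engulfment machinery, of which 3 of 19 were higher and 1 lower, held 1 to 4 and 164 to 4676 (0.0131, lost under 2). Fitted fold changes against such low counts depend on the prior count, and counts are given in their place. Apolipoproteins and their receptors had 4 of 13 lower, among them Apod (-4.95 ± 1.07, 0.00720, lost under 2 of 13 alternatives) and Vldlr (-4.53 ± 1.31, 0.0256, lost under 8 of 13 alternatives). Markers of other cells were called lower in the same comparison: 3 of 12 astrocyte (median -1.90), 3 of 11 neuronal (-2.25) and 3 of 8 oligodendrocyte markers (-2.02). So were 2 of 5 tested endothelial markers (-8.44) and 3 of 3 tested pericyte and smooth muscle markers (-10.35). No gene of these 5 lists was called higher. Of the microglial list 10 of 15 genes were higher and none lower, with a median of 3.72 against 0.00 over all genes. The part of all these markers in the values given here was not tested. Tyro3 was the 1 of 8 TAM partners called, and it was lower. It held 2 to 3 counts in D to F against 63 to 618 in the controls (edgeR adjusted p = 0.00650, lost under 1 of 13 alternatives). Other engulfment receptors had 5 of 14 higher, among them the lysosomal Cd68 (3.99 ± 1.12, 0.0223, lost under 5 of 13 alternatives), and 1 lower, Megf11, with 0 to 282 counts in the controls and 0 to 3 in D to F (0.0358, lost under 6 of 12 alternatives).

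In MG_TRAP 0% of 14771 genes were called between tamoxifen and control by edgeR, where 2351 had an unadjusted p under 0.05; DESeq2 called 819 and limma voom 1197. Of the 9 genes 3 had an unadjusted p under 0.05, DESeq2 called 2 and limma voom 3. Trem2 stood at 51.7, 68.1 and 112.5 scaled CPM in controls and at 1234, 972.8 and 844.3 with tamoxifen, fully apart (3.50 ± 1.10, edgeR adjusted p = 0.214; DESeq2 3.83, 0.00794). Tyrobp stood at 81.7, 732.9 and 194.5 and at 2689, 10210 and 14660, also apart (4.64 ± 1.03, edgeR adjusted p = 0.0635; DESeq2 4.86, 8.36e-05). Itgb5 stood at 173.0, 140.7 and 176.4 and at 1959, 573.1 and 605.2 (2.43 ± 0.99, edgeR adjusted p = 0.251). The groups were apart, tamoxifen higher, for 6 of the 9 genes (Trem2, Tyrobp, Itgb5, Apoe, Gas6 and Pros1), and 28.6% of all 14771 genes had groups that did not overlap (15.3% higher, 13.3% lower). In Input and in SN_input edgeR called none of the 9 genes and no gene at all (452 and 495 genes had an unadjusted p under 0.05, none of them a member, DESeq2 called 48 and 64 genes, none of them a member, and limma voom 0 and 0). In SN_input Axl lay at 44.5 to 75.3 scaled CPM with tamoxifen and 23.3 to 36.2 in controls, the 1 of 9 genes without overlap, as were 10.2% of all genes (3.57% higher, 6.63% lower).

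**Figure D4:**
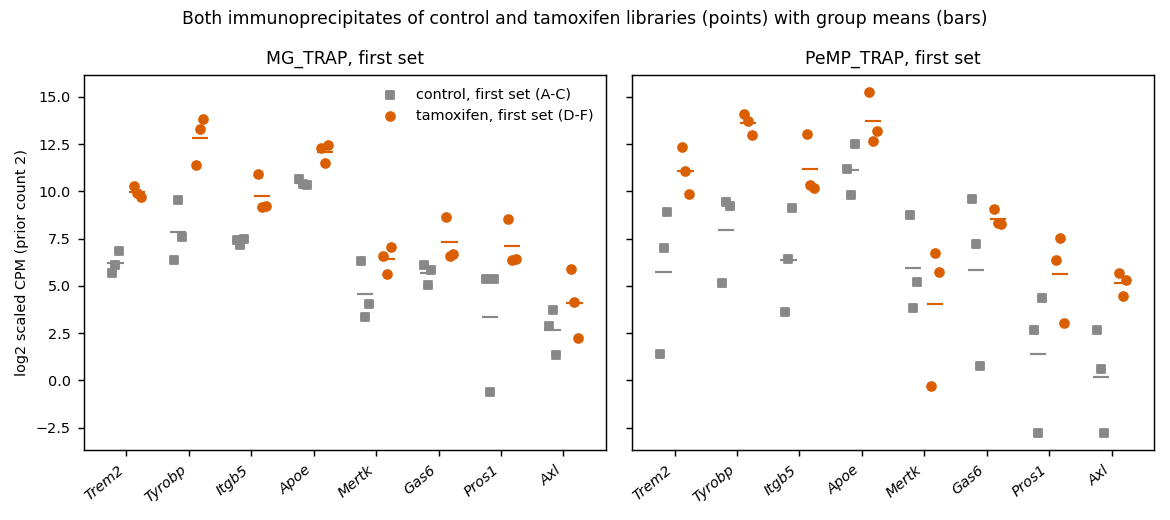
Log2 scaled CPM (prior count 2) of 8 genes in the first-set MG_TRAP (left) and PeMP_TRAP (right) libraries; squares are controls A to C, circles tamoxifen D to F, bars group means. Tamoxifen points of Trem2 and Tyrobp lie above all control points in both panels, while Mertk and Gas6 overlap in PeMP_TRAP.

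The control immunoprecipitates were set against their own inputs in the same way. In control libraries the MG_TRAP values lay above all Input values for Trem2 (51.7, 68.1 and 112.5 scaled CPM against 9.54, 10.6 and 1.95) and Itgb5 (173.0, 140.7 and 176.4 against 19.7, 6.72 and 3.02) and Apoe (1605, 1320 and 1309 against 1299, 348.1 and 682.2, close at the border). These were 3 of 9 genes, and 12.7% of all 14771 genes had groups that did not overlap (5.84% higher, 6.88% lower). In the edgeR fit of the 24 first-set libraries neither Trem2 nor Itgb5 passed (3.48 ± 1.10, adjusted p = 0.546; 4.12 ± 1.07, 0.289), and 0 of 9 genes were called, where 0.0135% of all genes were called. An unadjusted p under 0.05 was seen for 4 of the 9 genes and 1101 of all 14771. DESeq2 called both (adjusted p = 0.0441 and 0.00226) and 1.51% of all genes, and limma voom 0 of 9 and 0.25%. The control microglial list summed to 2604 to 5453 scaled CPM in MG_TRAP and 343.8 to 395.2 in Input. The enrichment in tamoxifen libraries minus that in controls was 3.57 ± 1.46 for Trem2, 5.72 ± 1.34 for Tyrobp and 1.59 ± 1.34 for Itgb5, and none passed (edgeR adjusted p = 0.467, 0.175 and 0.772; 0% of all genes called). Control PeMP_TRAP against SN_input called 0 of 9 genes and 0 genes in all by edgeR (1 of 9 and 2577 genes had an unadjusted p under 0.05), 0 of 9 and 1159 genes by DESeq2, and 0 of 9 and 31 by limma voom. In controls too, Megf10 held 0 counts in all 3 PeMP_TRAP libraries, against 172, 13 and 47 in SN_input, and Axl held 15, 1 and 0 against 216, 64 and 290. In the synaptosome fraction the tamoxifen minus control difference was 4.29 ± 1.47 for Trem2 (adjusted p = 0.103), 3.77 ± 1.29 for Tyrobp (0.101) and 4.35 ± 1.39 for Itgb5 (0.0847), where 1.24% of all genes were called.

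The genes whose levels ran most like those of Trem2 across the 12 combinations of fraction, treatment and set were C1qa (Pearson r = 0.993 of mean log2 CPM), Csf1r (0.992), C1qb (0.989), Pycard (0.988) and Psmb8 (0.986), out of 18290 genes ranked. For Megf10 they were Fyco1 (0.965), Ece2 (0.960), Gas1 (0.960), Fam228b (0.958) and Mmd2 (0.957). The 12 combinations share scaling, replicates and the presence or absence of the tag, so these values describe likeness and are no test.

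The authors' deposited table, made from the first set, lists 9 of the 10 genes. In that table Trem2 has log2 fold changes of 7.14 for MG_TRAP and 4.91 for PeMP_TRAP over their inputs (adjusted p = 5.81e-11 and 9.33e-06). The authors' deposited table gives Megf10 -8.87 in MG_TRAP (0.0274) and -9.04 in PeMP_TRAP (0.0350), where the MG_TRAP and PeMP_TRAP libraries of D to F hold 0 counts in the deposited count files. Its Axl values are 3.14 (0.104) and -0.31 (0.901) in the authors' deposited table. For the synaptosome input against the whole input, the authors' deposited table gives 6.66 for Trem2 (0.00575), 5.52 for Tyrobp (0.0166), 6.21 for Apoe (0.00295) and 5.88 for Itgb5 (0.0163). The heading of that comparison names no treatment, so it may not rest on the same libraries or contrast as the fits given here. The edgeR fit of only the tamoxifen libraries of the first set gave 3.16, 3.94, 3.77 and 2.56 for these genes and called none of them. The cause of this gap was not tested.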

How the data were processed

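Ribosome-bound and input RNA of 44 libraries had been amplified with SMART-Seq v4 and made into libraries with NEBNext Ultra II, per the labels' protocols. The submitters' processing notes name FastQC 0.11.7, Trimmomatic 0.38, Bowtie2 2.3.5, STAR 2.7.0d, HTSeq 0.9.1 and edgeR; build and annotation are not given in the sources used here. The deposited files hold whole-read counts per Ensembl gene, and summary lines that name no gene were left out: reads outside any gene (1.27% to 25.1% per library), ambiguous reads (0.396% to 4.17%) and multiply aligned reads (13.2% to 58.2%). The authors' deposited table of the first set holds log2 CPM, log2 fold changes and adjusted p-values.

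Counts of 50714 shared identifiers were tested with edgeR 4.0.16 (quasi-likelihood, TMM scaling, filterByExpr with a minimum count of 10, Benjamini-Hochberg adjustment, threshold 0.05) in R 4.3.3. The 32 tamoxifen libraries were fitted with set as a covariate (15710 genes), and the 24 first-set libraries for control comparisons (14771 genes). Library depth differed, and low counts give wide errors; a level of 0 is read against 3 counts. Log2 CPM used a prior count of 2. The scripts were tested on simulated data.

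Alternatives were RLE size factors, total counts, no filter, DESeq2 1.42.0, limma 3.58.1 (voom), fits of the groups compared or of 1 set alone, a replicate block, and leaving out each replicate. The 10 genes and all gene lists were chosen with earlier results of these data known. All 10 are named throughout; of each list, genes among the 2 highest and the 2 lowest called in a comparison may be named, and for Trem2 and Megf10 the 5 genes of the most similar pattern.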

Additional observations from a re-analysis of the deposited data

Results flagged for a closer look

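Values here are log2 scaled CPM unless a difference is named. In 39 groups of 8 tamoxifen libraries (1 gene in 1 fraction), 12 had a highest or lowest library whose gap to its neighbour exceeded 0.526 of the group's range. That cut-off flags about 1 group in 20 where 8 values come from 1 normal distribution. The groups here pool 2 sets and some hold libraries at 0 counts, so the 12 cannot be read against that rate. Replicate D accounted for 8 of the 12. It was highest for Apoe (15.28) and Itgb5 (13.02) in PeMP_TRAP, for Gas6 (8.62) and Pros1 (8.53) in MG_TRAP and for Gas6 in SN_input (8.40). It was lowest for Mertk (-1.59), Pros1 (-2.80, 0 counts) and Megf10 (-0.15) in SN_input. The other 4 were Axl in Input of F (0.24), Axl in MG_TRAP of J (-2.80, 0 counts), Megf10 in Input of E (-1.57) and Cd36 in PeMP_TRAP of F (3.89), the last on 9 counts.

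Enrichment over input differed between the synaptosome fraction and whole tissue by the interaction test for Trem2 (-2.62), Tyrobp (-3.37), Apoe (-1.66), Pros1 (-3.67) and Megf10 (-9.01), as log2 differences, synaptosome minus whole. The value of Megf10 rests on libraries at 0 and depends on the prior count.

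The second minus the first set differed in PeMP_TRAP against SN_input for Trem2 (-2.48), Axl (-7.57) and Cd36 (-15.73), and in PeMP_TRAP against MG_TRAP for Cd36 (-14.06). Cd36 passed the filter in the fits of these differences, with 9 counts in PeMP_TRAP of F and 0 in the other 7 PeMP_TRAP libraries, and its fitted sizes depend on the prior count.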

How the results depend on the processing

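Of 27 calls of a gene in a comparison, 5 held under every alternative tried: Trem2, Pros1 and Itgb5 in MG_TRAP against Input, and Trem2 and Itgb5 in PeMP_TRAP against SN_input. Of 33 values of list genes, 9 held under every alternative and none reversed. A level of 0 counts is bounded by 3 counts, at 0.0991 to 0.154 scaled CPM in PeMP_TRAP of G to K and at 0.674 to 4.9 in D to F.

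Counts of called genes among the 10 moved as follows. With the first set alone they were 3 (from 5) in PeMP_TRAP against SN_input, 0 (from 3) in PeMP_TRAP against MG_TRAP, 0 (from 5) in SN_input against Input and 0 (from 5) for the synaptosome minus whole enrichment, where 2.87%, 0%, 0.0463% and 0% of all genes were called. The second set alone gave 8 in PeMP_TRAP against SN_input, 6 in PeMP_TRAP against MG_TRAP and 8 for the difference of enrichments, Cd36 among them each time, where 43.6%, 42.6% and 29.5% of all genes were called. Limma voom gave 0 in SN_input against Input (1.33% of all genes) and 1 for the difference (12.1%). For tamoxifen against control in MG_TRAP (0), RLE size factors gave 1, no filter 1, DESeq2 2 and limma voom 3 (0.115%, 0.187%, 5.54% and 8.1% of all genes). In PeMP_TRAP (3), a fit of the groups compared gave 0 (0.353%), and leaving out the PeMP_TRAP library of replicate D, an alternative chosen after seeing the data, gave 1 (2.54%). For control MG_TRAP against Input (0), DESeq2 gave 2 (1.51%). These shifts' causes were not tested. Leaving out 1 replicate gave 5 to 6 calls in MG_TRAP against Input, 4 to 6 in PeMP_TRAP against SN_input, 3 to 4 in PeMP_TRAP against MG_TRAP, 4 to 5 in SN_input against Input and 4 to 6 for the difference of enrichments. Between treatments it gave 0 to 1 in MG_TRAP (1 without B) and 1 to 4 in PeMP_TRAP (1 without B or D).

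With the replicate block the counts were 5, 4, 3, 4 and 4 in the 5 tamoxifen comparisons, in the order of the leave-one-out ranges, where 8.87%, 31.7%, 20.7%, 2.41% and 4.11% of all genes were called. For the difference of enrichments the block added Itgb5 (-1.83, adjusted p = 0.0294) and lost Megf10 (-7.43, 0.0645) and Pros1. In controls the block was fitted to the groups compared alone, changing 2 choices together, and called 1 gene for MG_TRAP against Input, Itgb5 (4.46, 0.0199), and 0 for PeMP_TRAP against SN_input (0.163% and 0.0264%). Library deviations correlated at -0.04 to 0.22 within letters (median 0.02, 66 pairs) and -0.18 to 0.10 across. Input with MG_TRAP in D to F gave 0.08 to 0.22 within letters.

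Signs that reversed were all of uncalled values. Axl in MG_TRAP against Input was -0.23 with RLE size factors and with DESeq2, -0.35 with limma voom, -0.11 in the second set and -0.24 with the replicate block, and ran from -0.27 to 0.64 when 1 replicate was left out. In PeMP_TRAP against SN_input, Apoe was 0.06 in the fit of the groups compared and 0.47 in the first set, and Mertk -0.39 with limma voom. In PeMP_TRAP against MG_TRAP, Tyrobp was -0.04 with total counts and Axl 0.52 in the first set. Mertk there was -0.32 with RLE size factors and DESeq2, -0.54 with total counts, -0.05 without a filter, -1.78 with limma voom, -0.75 in the first set and -0.51 with the replicate block, and -0.39 to 0.36 when 1 replicate was left out. Gas6 there was -0.12 with RLE size factors and DESeq2, -0.31 with total counts and -0.03 in the second set. Megf10 in SN_input against Input was -0.64 with total counts. For tamoxifen against control in PeMP_TRAP, Gas6 was 0.43 without a filter and 2.92 with limma voom, and leaving out 1 replicate gave -0.34 to 2.34 for Gas6 and -3.14 to 1.10 for Mertk.

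Counts over all genes that moved by over 1.5 times follow, with the reported count in parentheses. For MG_TRAP against Input (1071) they were 1753 with DESeq2, 1796 with limma voom, 2626 without a filter, 3576 with the groups compared and 329 in the first set. For PeMP_TRAP against SN_input (5074) they were 8078 with limma voom, 2449 with the groups compared and 372 in the first set. For PeMP_TRAP against MG_TRAP (3952) they were 6939, 1363 and 0 in the same order, 6100 without a filter and 6653 in the second set. For SN_input against Input (400) they were 209, 2779 and 6, 243 with RLE size factors, 607 in the second set, and 195 to 251 without E, G, H, I or K. For the difference of enrichments (1770) they were 0 in the first set, 4600 in the second, 738 with the replicate block and 1014 to 1162 without G, H, I or J. For tamoxifen against control in PeMP_TRAP (1643) they were 4002 with DESeq2, 23 with the groups compared, 870 without C, 967 without D, 365 without F and 409 without the PeMP_TRAP library of D. In MG_TRAP (0) they were 17 with RLE size factors, 11 with total counts, 52 without a filter, 819 with DESeq2, 1197 with limma voom, and 46, 7 and 2 without B, D and E. In Input (0) and SN_input (0) they were 48 and 64 with DESeq2. For control MG_TRAP against Input (2) they were 4 (RLE), 17 (no filter), 223 (DESeq2) and 37 (limma voom), 22 with the block in these groups alone and 0 without A, B or C. For control PeMP_TRAP against SN_input (0) they were 1 with total counts, 16, 1159 and 31 with the latter 3, 3 with that block, and 1 and 2 without C and E.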

Other observations

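Rpl10a, the gene whose tagged product was used for the pull-down, differed in level between the sets. It lay between 0.776 and 6.21 scaled CPM in Input of D to F and between 75.7 and 89.8 in Input of G to K. In PeMP_TRAP it lay between 0.225 and 8.16 in D to F and between 363.6 and 562.8 in G to K. Cx3cr1, whose promoter drives the recombinase, stood at 1097 to 1860 scaled CPM in MG_TRAP of D to F, at 243.8 to 542.0 in G to K and at 15.2 to 122.2 in controls. These are values without a test, and the part of counting, whose identifier lists differ between the sets, was not tested.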
